A study of Mus musculus with 4 samples.

Results

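The genes described here are 34 mouse genes of the germline, of meiosis and of the piRNA pathway, listed by symbol and all found among the 25170 genes of each deposited table. Their RNA levels were compared in 4 RNA-seq libraries of mouse embryonic stem cells, 1 library per group, made from polyadenylated RNA. The first group, labelled SO, was genetically wild type and received what the series text calls an inhibitor treatment. The labels do not spell out SO or state a dose or duration. The second group was an Ldha knockout (Ldha_KO) and the third an Ldhb knockout (Ldhb_KO), and neither is said to be or not to be a single clone. The last was the untreated wild type (WT), described as E14, a widely used mouse stem cell line, and no line is named for the others. All cells were grown in fetal bovine serum and LIF on gelatin, and the protocol mentions no feeder cells. Levels below are FPKM, fragments scaled by transcript length and library depth. Differences are of log2(FPKM + 1) between 2 libraries, and a gene is called higher or lower where the difference reaches 1 in size, about 2-fold for well expressed genes. With 1 library per group there was no test, no error and no replicate check on any difference.

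Germ cells are set aside early in the embryo and later enter meiosis, in which homologous chromosomes are held together by the synaptonemal complex, broken and recombined. Their genome is guarded by the piRNA pathway, in which PIWI proteins and their cofactors, gathered in granules called nuage, use small RNAs to silence transposons. Many genes of these processes have CpG-rich promoters that are methylated in somatic cells, and in embryonic stem cells a Polycomb complex, PRC1.6, holds a number of them down through E2f6, Mga and Max, which recognise E2F and E-box motifs. Cultured stem cells nevertheless transcribe part of this set at low to moderate levels. The study asked how lactate dehydrogenase bears on the 2-cell state, and the germline set is one of the programmes that can be read in the same libraries.

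The promoters of these genes were searched for the short letters that factors of that complex recognise, and 9 are printed, picked with the calls known, to show genes with neither, 1 or both motifs. RefSeq promoter windows on GRCm38.p6 were found for 27 of the 34 genes. There was none for Prdm14, Dppa3, Tdrd6, Piwil2, Spo11, Tex11 and Tex15. The 250 bases before each start were searched for the E2F letters GCGGGA, which read TCCCGC on the other strand, and for the E-box CACGTG, which reads the same on both strands. The E-box can share no more than its end base with the E2F letters. Capitals mark these letters below. Stra8, Dazl and Tex101, which had the largest differences between Ldha_KO and WT, hold neither, and so does Prdm1, which was not called.

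Stra8 (chr6:34920698-34920947, plus strand): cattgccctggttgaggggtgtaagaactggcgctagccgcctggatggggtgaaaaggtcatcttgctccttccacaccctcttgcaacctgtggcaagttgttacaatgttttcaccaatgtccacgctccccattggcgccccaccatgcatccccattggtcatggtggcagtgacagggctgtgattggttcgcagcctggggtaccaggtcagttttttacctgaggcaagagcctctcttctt
Dazl (chr17:50293621-50293870, minus strand): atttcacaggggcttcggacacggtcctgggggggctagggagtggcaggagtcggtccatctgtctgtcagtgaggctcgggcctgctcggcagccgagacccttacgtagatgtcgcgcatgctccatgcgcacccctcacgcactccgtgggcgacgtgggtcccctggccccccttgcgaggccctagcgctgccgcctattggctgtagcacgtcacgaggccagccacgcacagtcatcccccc
Tex101 (chr7:24672051-24672300, minus strand): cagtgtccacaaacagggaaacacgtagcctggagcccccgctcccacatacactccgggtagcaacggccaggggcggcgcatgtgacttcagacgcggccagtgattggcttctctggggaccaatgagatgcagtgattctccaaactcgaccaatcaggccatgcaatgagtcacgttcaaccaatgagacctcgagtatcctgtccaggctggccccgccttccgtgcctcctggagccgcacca
Prdm1 (chr10:44458749-44458998, minus strand): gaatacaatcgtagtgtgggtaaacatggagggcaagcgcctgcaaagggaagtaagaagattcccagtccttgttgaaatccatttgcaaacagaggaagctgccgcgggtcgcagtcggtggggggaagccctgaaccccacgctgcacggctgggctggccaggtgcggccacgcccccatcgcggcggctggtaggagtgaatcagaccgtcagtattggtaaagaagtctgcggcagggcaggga

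Taf7l and Rec8, which were called higher in Ldha_KO too, hold 1 motif each, an E-box in Taf7l and the E2F letters in Rec8.

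Taf7l (chrX:134476491-134476740, minus strand): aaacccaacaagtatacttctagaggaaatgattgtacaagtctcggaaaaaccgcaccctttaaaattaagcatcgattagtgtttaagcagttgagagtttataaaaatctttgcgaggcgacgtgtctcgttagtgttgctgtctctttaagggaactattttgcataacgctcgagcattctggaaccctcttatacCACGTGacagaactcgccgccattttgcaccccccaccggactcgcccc
Rec8 (chr14:55617916-55618165, plus strand): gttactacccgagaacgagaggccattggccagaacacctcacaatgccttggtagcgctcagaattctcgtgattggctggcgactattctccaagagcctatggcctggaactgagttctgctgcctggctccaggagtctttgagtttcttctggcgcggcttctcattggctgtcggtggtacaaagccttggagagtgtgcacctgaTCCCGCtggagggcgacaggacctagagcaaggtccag

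Hormad1, Sycp3 and Mael, genes of the chromosome axis and of nuage that were not called in any comparison with WT, hold both motifs, though Sycp3 passed the threshold in Ldha_KO under both other scalings tried. Hormad1 and Sycp3 hold the E-box in 2 copies.

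Hormad1 (chr3:95559427-95559676, plus strand): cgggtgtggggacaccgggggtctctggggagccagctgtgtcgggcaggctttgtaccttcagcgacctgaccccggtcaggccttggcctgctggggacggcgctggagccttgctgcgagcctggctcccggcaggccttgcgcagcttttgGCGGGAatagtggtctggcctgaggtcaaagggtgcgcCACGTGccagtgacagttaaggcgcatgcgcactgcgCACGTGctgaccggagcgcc
Sycp3 (chr10:88459337-88459586, plus strand): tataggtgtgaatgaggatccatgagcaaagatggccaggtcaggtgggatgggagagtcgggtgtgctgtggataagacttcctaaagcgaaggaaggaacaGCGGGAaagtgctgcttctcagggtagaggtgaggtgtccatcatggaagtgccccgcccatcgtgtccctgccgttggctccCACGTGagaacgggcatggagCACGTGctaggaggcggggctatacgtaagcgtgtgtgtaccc
Mael (chr1:166238745-166238994, minus strand): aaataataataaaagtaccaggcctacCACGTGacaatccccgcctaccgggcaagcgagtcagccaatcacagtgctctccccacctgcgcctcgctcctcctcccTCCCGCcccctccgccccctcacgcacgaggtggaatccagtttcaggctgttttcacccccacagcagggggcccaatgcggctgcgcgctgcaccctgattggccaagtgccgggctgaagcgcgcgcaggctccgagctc

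The E-box was found in 12 of the 27 genes with a window (44.4%), against 6.86% of the 27025 genes with a window in the table. The E2F letters were found in 10 (37.0%), against 18.8%, and both in 5 (18.5%), against 1.98%. The windows of these genes are richer in CpG, with a median of 14 CpG per window against 6 over all windows. Among all windows with at least 14 CpG, 9.80% hold the E-box and 41.7% the E2F letters, beside 42.4% and 36.4% of the 33 windows of the set, some of which overlap. Of the 18 windows of the set that themselves have at least 14 CpG, 8 (44.4%) hold the E2F letters and 11 (61.1%) the E-box. The E2F share of the set was thus close to that of CpG-rich windows, and its E-box share was above it, without a test. In Ldha_KO against WT, 4 of the 9 kept genes with neither motif were called higher (Stra8, Dazl, Tex101 and Asz1), 2 of 5 with the E2F letters alone (Rec8 and Tex19.1), 2 of 5 with the E-box alone (Taf7l and Slc25a31) and none of 5 with both (Ddx4, Hormad1, Mael, Syce2 and Sycp3). Over all kept genes with a window, the shares called higher there were 3.02%, 1.91%, 2.73% and 1.93% in the same order. Counts this small do not separate the classes. A match is a string of letters in a window and not a bound site.

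**Figure D1:**
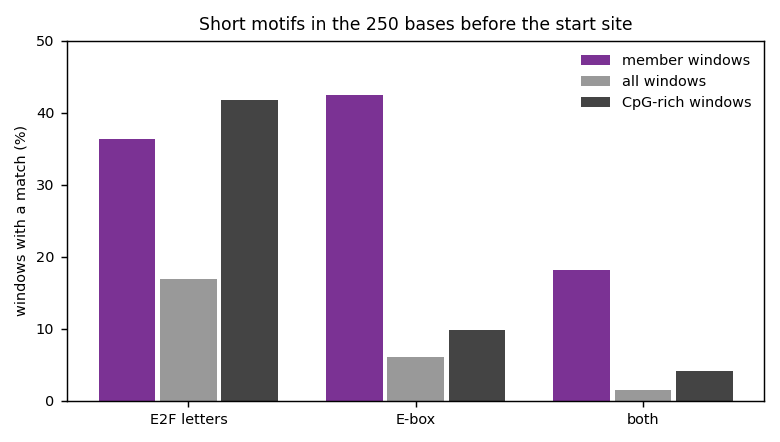
Share of promoter windows (percent, y axis) that hold the E2F letters, the E-box or both in the 250 bases before the start site, for the 33 windows of the germline set, all 32851 windows and the 9646 windows with at least 14 CpG. The E-box bar of the set, 42.4%, stands above both others (6.02% and 9.80%), and its E2F bar, 36.4%, lies between 16.9% and 41.7%.

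The libraries were first read as a whole. The deposited values summed to 471595 in SO, 477538 in Ldha_KO, 484528 in Ldhb_KO and 526316 in WT, and the tables state no read totals. The value worth 1 fragment, read from low genes, put the depth of SO, Ldha_KO and Ldhb_KO at 1.05, 0.996 and 1.05 times that of WT. The ratio of that value between SO and WT was constant over genes to within 0.0151% (10th to 90th percentile over 341 genes). For every other pair it was constant only to within 0.189% to 0.277%. Only genes with a ratio in a narrow window entered, which bounds these spreads. SO and WT therefore stand together in this property of the processing, and comparisons of either knockout with WT cross that split. The labels name no batch, and the part of this split in the results was not tested. Ldha was at 154 in Ldha_KO against 1774 in WT, and Ldhb at 5.74 in Ldhb_KO against 76.5 in WT, so both targeted genes were low in the library labelled for them. The 6 stem cell markers (Pou5f1, Sox2, Nanog, Zfp42, Esrrb and Klf4) summed to 2707 to 3192 in every library, and none was called against WT. Single ones differed more than the sum. Sox2 was at 344, 204 and 389 in SO, Ldha_KO and Ldhb_KO, against 371 in WT, and Klf4 at 133, 193 and 142, against 124 in WT. Prm1, Prm2, Tnp1, Acrv1 and Akap4, genes of the spermatid, were listed at 0 in all 4, and 9 of the 10 spermatid markers were under 1 in each library, all but Odf2. Of 9 oocyte markers only Zp3 (5.11 to 11.6) exceeded 1. Among 14 markers of gonad somatic cells, at least 8 were under 1 in each library. Zp3 was called lower in Ldha_KO than in WT (-1.04). Thus germline genes were read here in cells with stem cell markers, and without most of the listed markers of late germ cells, Zp3 and Odf2 aside. The 12 fibroblast or feeder markers summed to 207, 196 and 187 in SO, Ldha_KO and Ldhb_KO, against 259 in WT, most of it from Vim (134 to 209) and Thy1 (36.9 to 47.4). Of the others, Dcn and Lum were listed at 0 in all libraries, Col1a1 was at 1.20 to 1.87, and Pdgfrb was at 3.35, 2.80 and 3.63, against 0.949 in WT, and was called higher in SO and Ldhb_KO. The remaining 6 stayed under 1. The part of other cell types in the results was not tested.

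Of the 34 genes, 29 reached 1 in at least 1 library and enter the counts. Of these, 26 reached 1 in all 4 libraries, while Asz1 did so only in SO and Ldha_KO, and Dppa3 and Nanos3 did so in all but Ldha_KO. Asz1 thus entered through the libraries in which it was high. The 5 that stayed below 1 were Spo11, listed at 0 in every library, and Tdrd1, Tdrd6, Tdrd9 and Sycp2, between 0.0228 and 0.996. The genes lie on 17 chromosomes, and 2 of them, Taf7l and Tex11, on the X. Levels ran over 2 orders of magnitude, and 21 genes had a highest value of 10 or more. The highest were Tex19.1, at 106, 212, 67.9 and 88.4 in SO, Ldha_KO, Ldhb_KO and WT, and Syce2, at 113, 99.8, 174 and 114. Which library was highest was uneven across the 29 genes, which belong to a set chosen with earlier results of these data known. WT was the highest of the 4 for none of them, against 31.2% of the 13142 genes kept by the same filter. WT was the lowest for 14 of the 29 (48.3%), against 25.8% of all genes. Ldha_KO was the highest for 13 (44.8%, all genes 20.1%), Ldhb_KO for 13 (44.8%, all genes 28.3%) and SO for 3 (10.3%, all genes 20.4%).

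**Figure D2:**
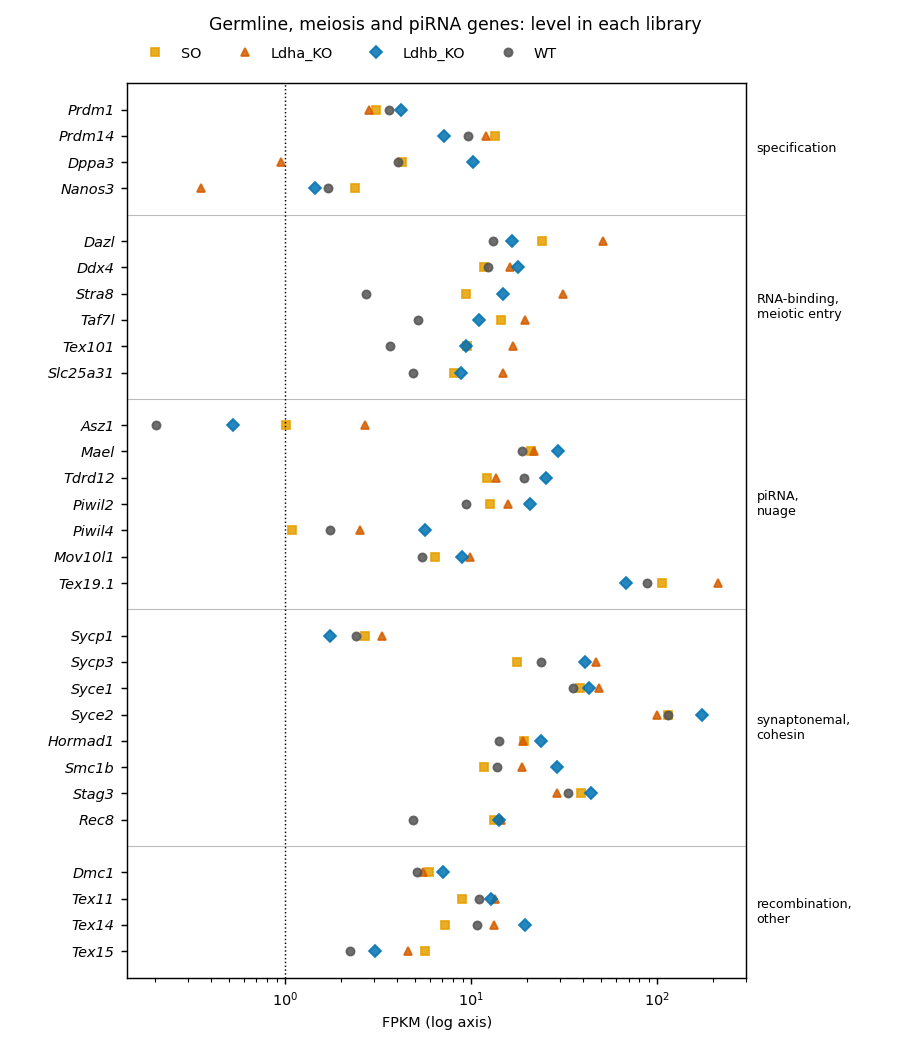
FPKM on a log axis for the 29 germline, meiosis and piRNA genes that reached 1 in at least 1 library (dotted line at 1), grouped by role, with 1 point per library. The WT point is the leftmost in 14 rows, among them Stra8, Rec8 and Tex101, and is never the rightmost, while below 1 lie only the Ldha_KO points of Dppa3 and Nanos3 and the Ldhb_KO and WT points of Asz1.

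In SO against WT, 5 of the 29 genes were higher and none lower, against 2.69% of all 13142 genes called higher and 0.472% called lower. The 5 were Stra8, Taf7l, Tex101, Rec8 and Tex15. The median difference of the set was 0.20, beside -0.04 over all genes. In Ldha_KO against WT, 8 were higher (Stra8, Tex101, Dazl, Taf7l, Asz1, Slc25a31, Rec8 and Tex19.1) and 1 lower (Dppa3), against 2.65% and 1.06% of all genes, with a median of 0.42 beside -0.03. In Ldhb_KO against WT, 7 were higher (Stra8, Rec8, Piwil4, Dppa3, Tex101, Piwil2 and Smc1b) and none lower, against 3.36% and 1.09% of all genes, with a median of 0.61 beside -0.02. Without the filter the median of all 34 genes was 0.19, 0.36 and 0.39 in SO, Ldha_KO and Ldhb_KO. The 3 comparisons share the WT library, so a value that happened to be low in WT would appear in each of them. The choice of the set with earlier results known may also bear on these counts. In bulk RNA, fewer cells of a type and less RNA per cell cannot be told apart.

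**Figure D3:**
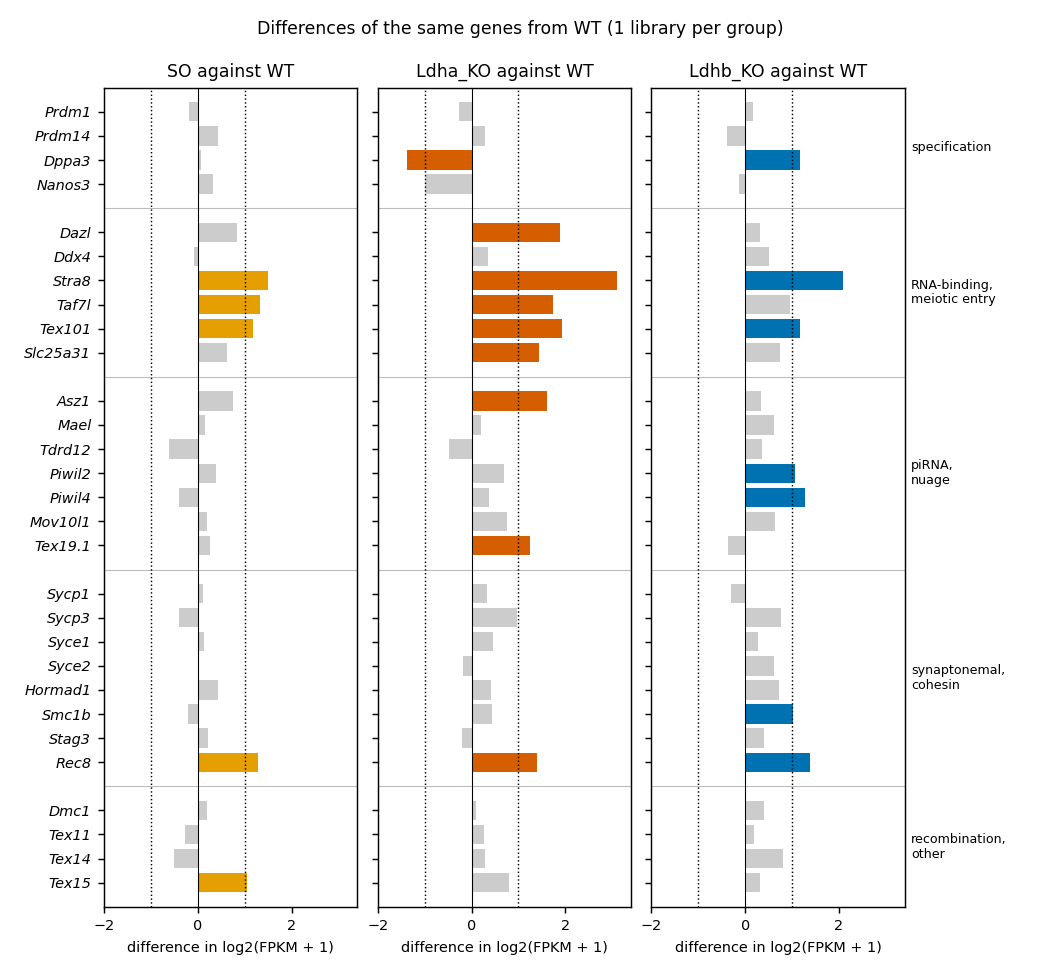
Difference in log2(FPKM + 1) from WT for the same 29 genes in SO, Ldha_KO and Ldhb_KO, with dotted lines at -1 and 1 and coloured bars for the genes past them. Of the coloured bars, 5, 9 and 7 in the 3 panels, all but that of Dppa3 in Ldha_KO (-1.37) point to higher values than in WT.

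The genes of germ cell identity and meiotic entry held the largest differences. Stra8, which is induced by retinoic acid and needed to enter meiosis, was at 9.41 in SO, 31.0 in Ldha_KO and 14.8 in Ldhb_KO, against 2.71 in WT. Its level was thus lowest in WT and 11.4-fold higher in Ldha_KO, with differences of 1.49, 3.11 and 2.09. The WT and SO values were whole multiples of a common step, and the smallest counts that fit Stra8 were 40, 125, 63 and 11 fragments in the same order. The actual counts can be multiples of these. The exact 95% Poisson interval of the 11 fragments in WT is 5.49 to 19.7, and that of the 40 in SO 28.6 to 54.5. Such intervals cover counting error only, and hold only if the smallest counts are the actual ones.

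Dazl, an RNA-binding protein that controls translation in germ cells, was at 24.0 in SO, 51.1 in Ldha_KO and 16.5 in Ldhb_KO, against 13.0 in WT. Only Ldha_KO passed the threshold (1.89), with SO at 0.84 and Ldhb_KO at 0.32. Tex101, a surface glycoprotein of male germ cells, was at 9.53, 16.7 and 9.41 in SO, Ldha_KO and Ldhb_KO, against 3.67 in WT, with SO and Ldhb_KO nearly level. Taf7l, a germ cell form of a TFIID subunit, was at 14.4, 19.5 and 11.0, against 5.19 in WT, and its difference in Ldhb_KO, 0.95, lay just under the threshold. Slc25a31, the ADP/ATP carrier of germ cell mitochondria, was at 8.06, 14.9 and 8.81, against 4.86 in WT, and reached 1.44 in Ldha_KO. For these 4 genes, as for Stra8, Ldha_KO was the highest library and WT the lowest. Ddx4, the Vasa RNA helicase that marks germ cells in many animals, did not follow them. It was at 11.6, 16.1 and 17.9, against 12.3 in WT, with no difference above 0.50.

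Among the genes of germ cell specification, Dppa3 alone was called, and in opposite directions in the knockouts. Dppa3 (Stella), which protects the maternal genome from demethylation, was at 4.24 in SO, 0.952 in Ldha_KO and 10.3 in Ldhb_KO, against 4.03 in WT. The differences were -1.37 in Ldha_KO and 1.16 in Ldhb_KO, and the level lay close to WT in SO (0.06). Nanos3, an RNA-binding protein needed for germ cell survival, was at 2.38, 0.354 and 1.45, against 1.70 in WT. Its difference of -0.997 in Ldha_KO was just short of the threshold, and passed it with a pseudocount of 0.1. Prdm1 (Blimp1) and Prdm14, transcription factors that start the germ cell programme, differed less. Prdm1 was at 3.06, 2.81 and 4.17, against 3.61 in WT, and Prdm14 at 13.3, 11.9 and 7.10, against 9.61 in WT. Neither was called, with differences of -0.39 to 0.44.

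In the piRNA pathway the libraries split by gene. Asz1, a mitochondrial scaffold of nuage, was at 1.01 in SO, 2.68 in Ldha_KO and 0.525 in Ldhb_KO, against 0.201 in WT. The smallest counts that fit were 21, 53, 11 and 4 fragments in the same order. At these counts the interval in WT, 1.09 to 10.2 fragments, does not overlap that in SO, 13.0 to 32.1, but does overlap that in Ldhb_KO, 5.49 to 19.7. Tex19.1, which restrains retrotransposons in germ cells and placenta, was called higher in Ldha_KO (1.25), and lay at 0.27 in SO and -0.38 in Ldhb_KO. Its paralog Tex19.2 was at 5.72, 12.3 and 2.13 in SO, Ldha_KO and Ldhb_KO, against 1.58 in WT, and copies so alike can share reads, so the value of each is uncertain.

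Both PIWI genes of the set, Piwil4 and Piwil2, were highest in Ldhb_KO. Piwil4 (MIWI2), which directs DNA methylation to transposons in fetal germ cells, was at 1.08 in SO, 2.53 in Ldha_KO and 5.61 in Ldhb_KO, against 1.73 in WT. Piwil2 (MILI), the slicer of primary piRNAs, was at 12.6, 15.7 and 20.6, against 9.38 in WT. Their differences in Ldhb_KO were 1.27 and 1.06, and none in SO or Ldha_KO exceeded 0.68. The unlisted gene Gm10706 overlaps an exon of Piwil4 on the other strand. Mov10l1, the helicase that feeds precursors to the pathway, was at 6.35, 9.81 and 8.93, against 5.41 in WT, and Mael at 20.8, 21.8 and 29.4, against 18.7 in WT. Tdrd12 was lower in SO and Ldha_KO than in Ldhb_KO and WT, at 12.1, 13.5, 25.1 and 19.2, without reaching the threshold. Among the low genes, Tdrd9, a helicase of transposon silencing, was at 0.576, 0.768 and 0.557, against 0.212 in WT. The smallest counts that fit were 37, 47, 36 and 13 fragments. At these counts the WT interval, 6.92 to 22.2 fragments, does not overlap those of the other libraries, the lowest bound of which is 25.2. Tdrd1 lay between 0.656 and 0.996 and Tdrd6 at or below 0.0836 in all 4.

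Among the structural genes of meiotic chromosomes, Rec8 was called in SO, Ldha_KO and Ldhb_KO and Smc1b in Ldhb_KO, and no other was called. Rec8, the kleisin that holds sister chromatids together in meiosis, was at 13.2 in SO, 14.4 in Ldha_KO and 14.2 in Ldhb_KO, against 4.86 in WT. The SO, Ldha_KO and Ldhb_KO values thus lay close together, and their differences from WT were 1.28, 1.39 and 1.37. Smc1b, another meiotic cohesin subunit, was at 11.7, 18.8 and 28.9, against 13.7 in WT, and was called in Ldhb_KO (1.03). Stag3, the third of these subunits, was at 38.8, 28.9 and 44.1, against 33.3 in WT, and was not called. Sycp3, a lateral element protein of the synaptonemal complex, was lower in SO (17.7) than in WT (23.5), and higher in Ldha_KO (47.0) and Ldhb_KO (40.8), with a largest difference of 0.97. The gene Chpt1 overlaps an exon of Sycp3 on the other strand, and was itself at 7.19, 7.82 and 8.62, against 5.14 in WT, and the labels do not say whether reads were counted by strand, so the reads of the 2 genes cannot be told apart there. Syce1, of the central element as is Syce2, was at 38.3, 48.7 and 42.8, against 35.2 in WT. Hormad1, of the chromosome axis, was at 19.3, 19.0 and 23.6, against 14.01 in WT, and Sycp1, the transverse filament, at 2.70, 3.30 and 1.75, against 2.40 in WT. These 4 genes had differences from -0.31 to 0.71 and none was called. Sycp2 was at 0.939, 0.959 and 0.959, against 0.601 in WT, and the smallest counts that fit were 36, 35, 37 and 22 fragments. At these counts the intervals overlap, the highest bound in WT being 33.3 and the lowest in the others 24.4.

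Among the genes of recombination and of other germ cell functions, only Tex15 in SO was called. Spo11, which makes the breaks that start recombination, was listed at 0, and Dmc1, the recombinase that repairs them, was at 5.93, 5.52 and 7.01, against 5.09 in WT. Tex15, a gene of meiotic repair and transposon silencing, was at 5.65 in SO, 4.58 in Ldha_KO and 3.03 in Ldhb_KO, against 2.24 in WT. It was highest in SO, where the difference was 1.04. Tex14, needed for bridges between germ cells, was at 7.23, 13.3 and 19.4, against 10.7 in WT, so that SO was the lowest and Ldhb_KO the highest library. Tex11, an X-linked meiotic gene, was at 8.89, 13.4 and 12.8, against 11.0 in WT.

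The knockout libraries were also compared with each other, a comparison that does not use WT. In Ldha_KO against Ldhb_KO, 4 of the 29 genes were higher and 1 was lower, against 1.67% and 1.54% of all genes. The median was 0.02, beside -0.02 over all genes, so the set as a whole did not lie on either side. Tex19.1 (1.63), Dazl (1.57), Asz1 (1.27) and Stra8 (1.02) were higher in Ldha_KO, and Dppa3, at 0.952 in Ldha_KO and 10.3 in Ldhb_KO, was lower (-2.53). Short of the threshold in the other direction lay Piwil4 (-0.90), Nanos3 (-0.86) and Tdrd12 (-0.84). Rec8 was at 14.4 and 14.2 and did not separate the knockouts (0.02).

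**Figure D4:**
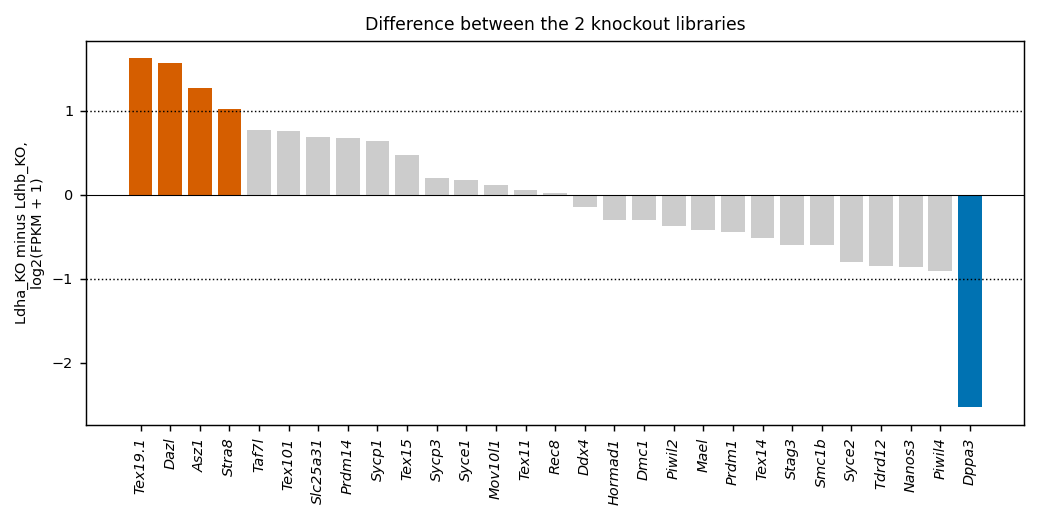
Difference in log2(FPKM + 1), Ldha_KO minus Ldhb_KO, for the 29 genes in falling order, with dotted lines at -1 and 1. The bars of Tex19.1, Dazl, Asz1 and Stra8 pass 1 and that of Dppa3 reaches -2.53, while 15 bars lie above 0 and 14 below.

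Genes of the 2-cell state differed in the same libraries as part of the set. The 10 markers of that state summed to 88.7 in SO and 63.0 in Ldha_KO, against 9.98 in Ldhb_KO and 9.71 in WT. Of the 8 that were kept, 8 were higher than WT in SO, 7 in Ldha_KO and none in Ldhb_KO. Some of these were under 1 in Ldhb_KO and WT, and entered through libraries in which they were high. The leading ones were Gm5662, at 29.1, 21.4 and 2.37, against 2.21 in WT, and Zscan4c, Zscan4d and Zscan4a, whose differences were 2.51 to 2.56 in SO and 1.94 to 2.08 in Ldha_KO. Stra8, Tex101 and Rec8 were nevertheless called higher in Ldhb_KO, the library in which these markers were near WT. For Dazl, Taf7l and Asz1, which were highest in Ldha_KO and next in SO, the order of libraries differed from that of the markers, which were highest in SO. The part of 2-cell-like cells in the germline values was not tested.

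Of the other genes of the same processes that were kept, those of meiosis and the piRNA pathway had smaller medians than the members in each knockout. The other germ cell genes had larger ones, though only slightly so in Ldhb_KO. Without the filter, the other meiosis genes and the members were level in Ldhb_KO, with medians of 0.396 and 0.395. Of 25 other meiosis genes kept, 1, 2 and 3 were higher in SO, Ldha_KO and Ldhb_KO than in WT and none was lower, with medians of 0.14, 0.26 and 0.25. Rec114, which is needed for meiotic break formation, was the one called in all, at 33.0, 50.8 and 28.0, against 12.4 in WT. Fkbp6, a chaperone of piRNA loading that was counted here with meiosis, was at 12.7, 37.9 and 15.3, against 9.85 in WT. It was called higher in Ldha_KO (1.84). Meiob, which binds single-stranded DNA in recombination, and Majin, which fixes telomeres to the nuclear envelope, were instead called in Ldhb_KO, at 1.91 and 6.38, against 0.103 and 2.25 in WT. Meiob was under 1 in the other libraries, so it entered only through the library in which it was called. None of the 15 kept genes of the other piRNA list, which leaves out Fkbp6, was called in any of these comparisons. Their medians were 0.13, 0.22 and 0.23. Among them Piwil1, another PIWI gene, was at 0.904, 1.39 and 0.955, against 0.664 in WT, and was highest in Ldha_KO. Of 24 other germ cell genes kept, 2, 11 and 6 were higher and none was lower, with medians of 0.26, 0.97 and 0.63. The 6 in Ldhb_KO were Tfap2c and the copies Xlr3a, Xlr3b, Xlr3c, Xlr4a and Xlr5a. The same copies were also called higher in Ldha_KO (1.37 to 2.78). These copies are nearly identical and can share reads, so the counts and medians in both knockouts lean on that family. Some of the called genes, such as Xlr5a, were under 1 in WT and entered through libraries in which they were high.

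**Figure D5:**
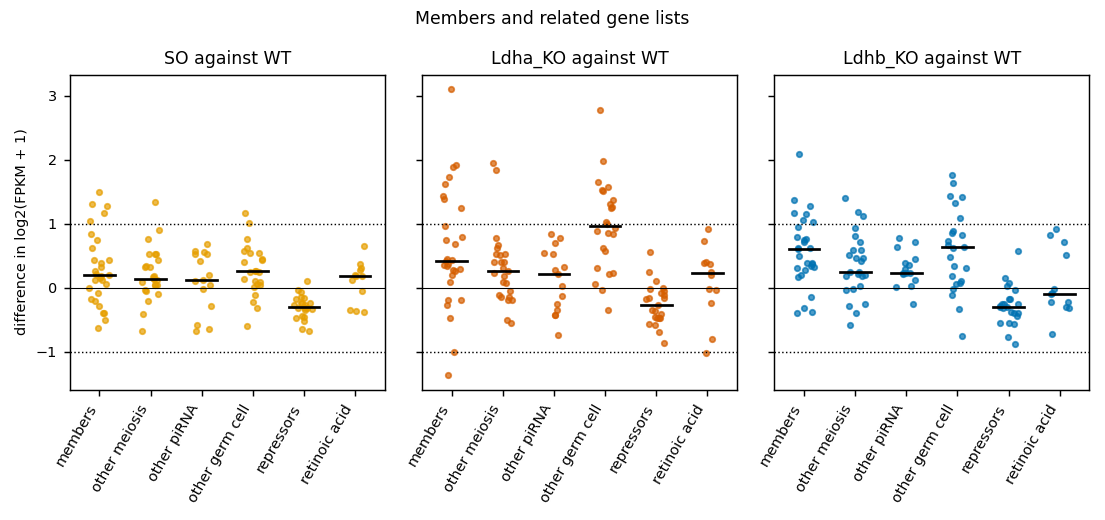
Difference in log2(FPKM + 1) from WT of each kept gene of 6 lists (points) with the list median (black bar), in SO, Ldha_KO and Ldhb_KO. The medians of the members and of the other germ cell genes lie above 0 in all panels (0.20 to 0.97), and those of the repressors below (-0.26 to -0.30).

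None of the listed regulators that repress germline genes was called, and most lay somewhat below WT. Of 23 such genes, including the PRC1.6 subunits, DNA and H3K9 methyltransferases and, though they act on demethylation, Tet1 and Tet2, 22, 20 and 19 lay below WT in SO, Ldha_KO and Ldhb_KO, against 7131, 6987 and 6874 of all 13142 genes, with medians of -0.30, -0.26 and -0.29. Yaf2, a subunit of Polycomb complexes, went the other way in the knockouts, at 5.44, 10.5 and 10.5, against 6.78 in WT, with differences of 0.56 in Ldha_KO and 0.57 in Ldhb_KO. With each library scaled to the same total as WT, which moved the median of all genes by 0.14, 0.12 and 0.11, these counts were 18, 15 and 18. Relative to the median of all genes, the medians of the repressors under that scaling were -0.24, -0.22 and -0.26. Each repressor reached 5 in at least 1 library. Genes that did so had medians of -0.08, -0.08 and -0.09 before scaling, below the -0.04, -0.03 and -0.02 of all genes. Against genes of like level the repressors thus lay less far down. Dnmt3b, a de novo DNA methyltransferase, was at 44.0, 37.8 and 57.7, against 69.2 in WT, and Dnmt3a at 26.5, 26.2 and 24.8, against 42.8 in WT. The E-box partners Mga and Max were at 16.5, 22.5 and 20.3, against 20.8 in WT, and at 91.1, 72.8 and 77.0, against 102 in WT, and E2f6 at 15.6, 17.4 and 16.2, against 14.5 in WT. Mga and E2f6 thus differed from WT by at most 0.31, and E2f6 lay above it.

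Targets and components of retinoic acid signalling, which is known to induce Stra8, gave 1 call, and several low ones had higher values in the knockouts than in WT. Of 12 kept of 20, none was called higher in any comparison with WT and 1, the receptor gene Rarg, was called lower in Ldha_KO, at 108 against 221 in WT. The medians were 0.18, 0.23 and -0.09 in SO, Ldha_KO and Ldhb_KO. Rarb, a receptor gene that is a direct target, was at 0.205, 0.482 and 0.378, against 0.0917 in WT, and Cyp26a1, which breaks retinoic acid down, at 0.0934, 0.787 and 0.325, against 0.0977 in WT. Both were under the filter, near the floor of the values, and the pseudocount shrinks such differences. The receptor gene Rara was at 33.4, 24.5 and 37.1, against 43.3 in WT. Of the 12 kept genes, 8, 7 and 4 lay above WT in SO, Ldha_KO and Ldhb_KO, and 4, 5 and 8 below. Aldh1a2, which makes retinoic acid, was at 0.531, 2.01 and 1.83, against 0.593 in WT, with differences of 0.92 in Ldha_KO and 0.83 in Ldhb_KO. The part of retinoic acid signalling in the Stra8 values was not tested.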

How the data were processed

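The 4 libraries were each given by the authors as a table of 25170 gene symbols with 1 value per gene, and the deposited values were read as FPKM from the values alone, because they are fractional, their totals differ between libraries and the size of their steps varies with the gene. Neither the labels nor the values tell FPKM from RPKM. Per the submitters' processing notes, genome build mm9 was used, and edgeR 3.26.8, HTSeq 0.11.2, SAMtools 1.9 and Bowtie2 2.3.4.3 are named without their roles. Groups came from the labels. The members and the 12 other gene lists were chosen with earlier results of these data known.

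Differences used a pseudocount of 1 over genes with at least 1 FPKM in at least 1 library, and were called at 1 on the log2 scale. The differences of low genes are understated on this scale. Of 217 listed genes all were found, 6 through a RefSeq synonym. All 34 members are accounted for, and of the other lists up to 4 called genes with the largest difference are named. Others named (Dnmt3a, Dnmt3b, Mga, Max, E2f6, Rara, Rarb, Cyp26a1, Aldh1a2, Yaf2, Piwil1, Xlr3a, Xlr4a, Vim, Thy1, Col1a1, Tex19.2 and Chpt1) were chosen after their values were seen. No test was made, because each group had 1 library. The rule for calls was run on simulated libraries with assumed noise, in which changes were planted only in well expressed genes. That run does not bear on low genes such as Asz1, and it does not replace replicates.

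Fragments were recovered where the WT and SO values were whole multiples of 1 step within 0.005%, at no more than 40 fragments, with the knockouts whole within 0.1 fragments or 0.4%. This held for 54.3% of 2911 genes below 1 in every library, and for 13.1% when the SO step was moved by 5%, so single cases can be chance. The smallest counts that fit were taken, and the actual counts can be multiples of them. Intervals are exact Poisson at 95% for those smallest counts. Promoter sequences are RefSeq's, on GRCm38.p6, while the files use mm9. Overlapping genes are from the GENCODE annotation of the same build. Promoters were matched by symbol and their coordinates were not joined to the files. Python 3.11.15, pandas 2.3.3, numpy 2.4.6 and scipy 1.17.1 were used.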

Additional observations from a re-analysis of the deposited data

Results flagged for a closer look

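Dppa3 was the member called in opposite directions against WT in the knockouts, with a difference of -1.37 in Ldha_KO (0.952 FPKM) and of 1.16 in Ldhb_KO (10.3 FPKM), beside 4.03 FPKM in WT. With 1 library per group the difference between the knockouts was not tested.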

How the results depend on the processing

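The alternatives were no filter, a filter of 5, a pseudocount of 0.1 and a scaling to the total of WT or to the median ratio of genes at 5 or more. Of 100 values recomputed, 82 stayed close to the reported ones and 18 moved. Close was a loose rule. With the median ratio, a rise from 441 to 638 genes higher in Ldhb_KO than in WT still counted as close. Most of the values were counts, which cannot change sign, and no median changed sign. Without the filter the counts of calls had to repeat, because genes under 1 in every library cannot reach the threshold. With a pseudocount of 0.1, the genes called higher and lower in all were 808 and 182 in SO against WT, 868 and 321 in Ldha_KO against WT, 1141 and 311 in Ldhb_KO against WT, and 419 and 574 in Ldha_KO against Ldhb_KO. With it, 2 members were lower in Ldha_KO than in WT (Nanos3 beside Dppa3) and 3 lower in Ldha_KO than in Ldhb_KO (Nanos3 and Piwil4 beside Dppa3), and Asz1 was higher in SO and in Ldhb_KO, Taf7l in Ldhb_KO and Tex15 in Ldha_KO. With a filter of 5, which tests fewer genes, SO had 234 genes above and 40 below WT at the threshold, and Ldhb_KO had 262 above. The median of the members was 0.39 in Ldhb_KO against WT and 0.0402 in Ldha_KO against Ldhb_KO without a filter. It was 0.33 in SO against WT and 0.0428 in Ldha_KO against Ldhb_KO when scaled to the total of WT. With the median ratio it was 4.79e-05 in Ldha_KO against Ldhb_KO. Both rescalings add Sycp3 to the members higher in Ldha_KO and Taf7l to those higher in Ldhb_KO. The share of calls that were higher, over all genes, was 71.5% in Ldha_KO and 75.5% in Ldhb_KO, against 83.3% and 86.4% when scaled to the total of WT. No paired analysis was possible because each group has 1 library and no test was made. Depth may limit Asz1, Tdrd9, Sycp2 and the WT value of Stra8, for which the smallest fragment counts that fit were low. The actual counts can be multiples of these, so the extent of that limit is not known.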

Other observations

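The listed germ cell genes outside the members were led by X-linked families that separated the knockouts from SO. Xlr3b was at 3.93 in SO, 12.1 in Ldha_KO and 10.2 in Ldhb_KO, against 2.302 in WT, and Xlr5a at 0.767, 3.88 and 4.12, against 0.642 in WT. Xlr3c was at 1.56, 13.6 and 3.53, against 1.12 in WT. Because the copies are nearly identical, reads can be placed on the wrong one and single values are uncertain. The ratio of the value of 1 fragment was steadier over genes between SO and WT than between either of them and a knockout. The part of that in these values was not tested. Dpep3, a dipeptidase of the testis, was at 1.40, 3.47 and 1.19, against 0.419 in WT. Rhox13, an X-linked homeobox gene of germ cells, was at 7.81, 10.4 and 6.28, against 2.92 in WT, and Tfap2c, a transcription factor of early germ cells and trophoblast, at 12.0, 11.5 and 26.1, against 9.80 in WT. These last genes were chosen after their values were seen. Ldhc, the lactate dehydrogenase subunit of the testis, was at 2.58, 4.60 and 3.11, against 1.24 in WT, and was called in Ldha_KO (1.32).

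Single markers of gonad somatic cells also differed. Insl3, a hormone of Leydig cells, was at 5.08, 2.54 and 10.8, against 6.64 in WT, and Ptgds at 2.76, 1.11 and 1.84, against 0.825 in WT.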
